A study of Mus musculus with 22 samples.

Results

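Beta cell disallowed genes are genes that most tissues transcribe and that mature insulin-secreting beta cells keep at a low level. Here 30 such genes were listed by symbol from general knowledge of the field, and their transcripts were followed in sorted pancreatic endocrine cells of *Isl1CKO* and control mice. Of the 30 genes, 29 were in both count tables, among 24296 genes in both, and *Rarres2* was in the P9 table only. The comparison asks whether the genes were lower in control cells at P9 than at E14.5, and whether *Isl1CKO* cells differed from controls at either age. The study deleted *Isl1*, which encodes a LIM-homeodomain transcription factor of endocrine cells, with a Cre driven by *Neurod1*, and each library holds the RNA of 100 sorted tdTomato+ cells. *Isl1CKO* mice carry floxed alleles on both chromosomes (*Isl1* f/f), *Neurod1Cre* and the *TomatoAi14* reporter. The study's methods give the controls of these libraries 1 floxed allele (*Isl1* f/+) with the same Cre and reporter, while their sample labels call them WT. There were 6 *Isl1CKO* and 5 control libraries at P9 (pups of P9 to P10), and 5 *Isl1CKO* and 6 control libraries at E14.5, from littermates of both sexes. P9 pancreas was treated with collagenase and then trypsin and E14.5 pancreas with trypsin alone, so age and dissociation cannot be told apart. The sort takes all cells in which the Cre acted, so these are mixed endocrine cells and not pure beta cells, and in such bulk samples fewer cells of a type and less RNA per cell cannot be told apart.

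The best known disallowed genes, *Ldha* and *Slc16a1*, encode lactate dehydrogenase A and the plasma membrane lactate and pyruvate transporter MCT1. Their low level directs pyruvate from glycolysis to the mitochondria and keeps beta cells from secreting insulin in response to pyruvate or lactate in the blood. The high-affinity hexokinases *Hk1* and *Hk2*, which phosphorylate glucose in most tissues even when it is scarce, are also kept low. The other listed genes include transcription factors of growth pathways, secreted and matrix proteins, and cytoskeletal regulators, and many are known from comparisons of islets with other tissues.

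Libraries held 8477482 to 13580985 counts. Levels below are counts per 1000000 of the library size scaled by TMM (CPM), with 1 scaling over all 22 libraries. The 8 islet hormone genes took 13.98% to 30.2% of the counts in *Isl1CKO* and 51.1% to 56.4% in control libraries at P9, and up to 2.49% and 6.17% at E14.5. At P9 the *Isl1* count was higher, at 967 ± 295 CPM (SD, n = 6) in *Isl1CKO* and 457 ± 61.9 CPM (n = 5) in controls. At E14.5 it was 659 ± 62.8 CPM (n = 5) in *Isl1CKO* and 923 ± 85.0 CPM (n = 6) in controls. The count sums all exons, including any that the floxed allele keeps, so at P9 it does not check the labels. Group names here follow the labels, and every direction given for *Isl1CKO* at P9 is that of the libraries labelled so. In control P9 libraries 1 and 3 the summed markers of acinar cells were 492 and 1452 CPM, against 53.8 to 200 CPM in the other 3. In *Isl1CKO* E14.5 libraries 3, 4 and 5 the summed markers of macrophages were 75.2, 104 and 50.5 CPM, against 30.4 to 33.8 CPM in libraries 1 and 2 and 29.4 to 47.1 CPM in E14.5 controls. A call that was lost without these libraries is given with and without them. Without *Isl1CKO* E14.5 libraries 3, 4 and 5 that group has 2 libraries. Over all genes, E14.5 calls were then 19 higher and 23 lower of 18031, against 96 and 132 of 15960 with them. For the difference of the genotype effects between the ages they were 27 and 30 of 19409, against 212 and 147 of 17265. A call lost in that run therefore does not show what these libraries contributed.

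Most of the listed genes were already low at both ages and in both genotypes. The group mean was under 1 CPM for 12 genes in *Isl1CKO* and 10 genes in control cells at P9 (of 30), and for 6 genes in *Isl1CKO* and 9 genes in control cells at E14.5 (of 29). It reached 10 CPM for 7 genes in *Isl1CKO* and 4 genes in control cells at P9, and for 8 and 7 genes at E14.5. Divided by the exon length of each gene, the median level of the listed genes was 0.362 CPM per kb in *Isl1CKO* and 0.409 CPM per kb in control cells at P9. The median over the 17246 genes that passed the filter on low counts over all 22 libraries was 2.91 and 2.87 CPM per kb in the same groups. At E14.5 the listed genes had a median of 0.515 CPM per kb in *Isl1CKO* and 0.286 CPM per kb in control cells, against 2.68 and 2.73 CPM per kb over the filtered genes. Below the median of the filtered genes lay 25 listed genes in *Isl1CKO* and 27 in control cells at P9, and 22 in each group at E14.5. The listed genes were not filtered, and 5 of the 30 were not among the filtered genes. The listed genes therefore look lower here than they would beside unfiltered genes.

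**Figure D1:**
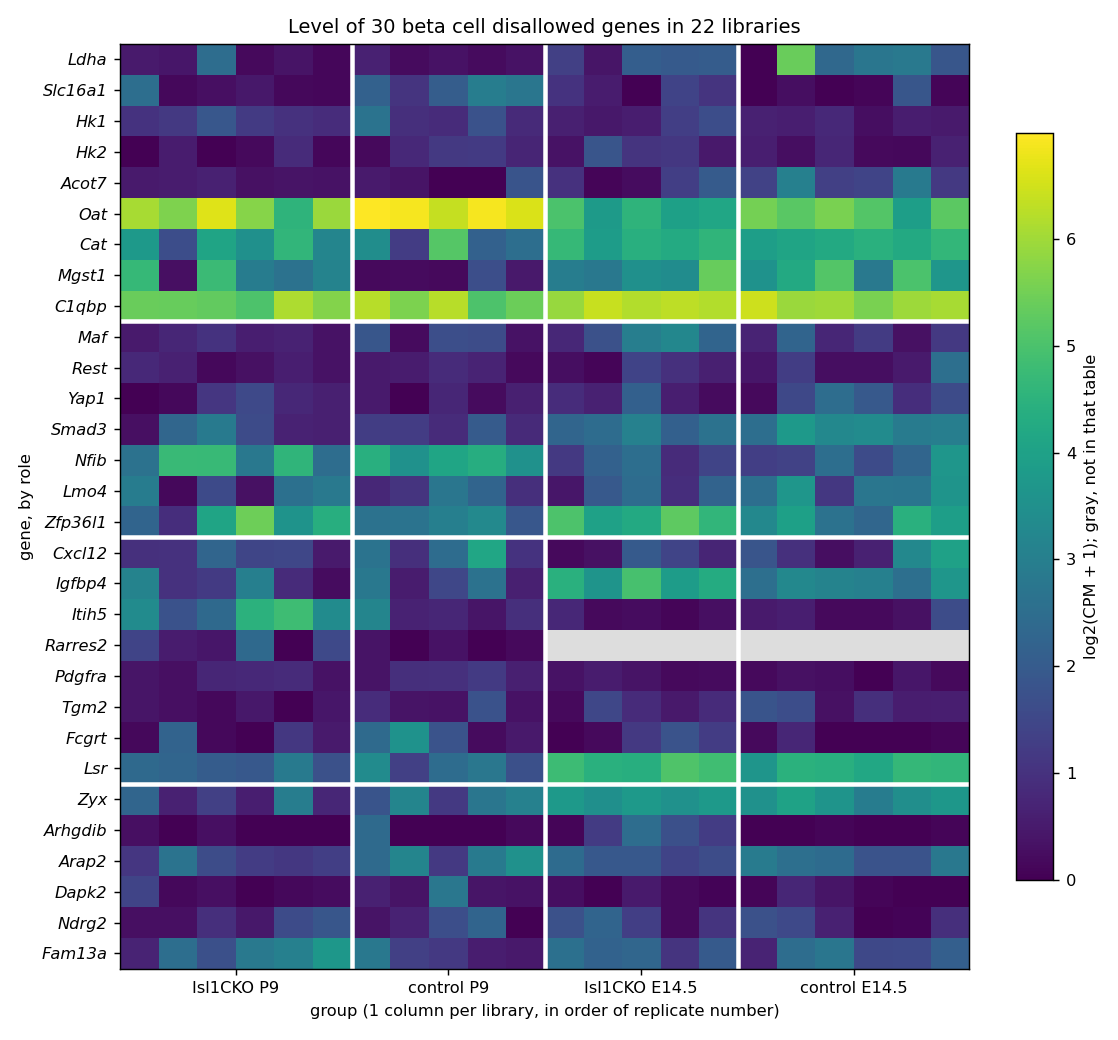
Level of each listed gene in each of 22 libraries as log2(CPM + 1), with *Isl1CKO* P9, control P9, *Isl1CKO* E14.5 and control E14.5 from left to right and the genes grouped by role. Rows for *Oat* and *C1qbp* are bright in every group, most rows are dark throughout, and *Rarres2* is gray at E14.5, where it was not in the table.

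The levels of 2 genes went against the name of the list. *Oat*, the mitochondrial ornithine aminotransferase, stood at percentile 94.4 of the filtered genes per kb in control P9 cells, and *C1qbp*, a mitochondrial matrix protein, at percentile 87.1. In *Isl1CKO* P9 cells their percentiles were 89.7 and 84.6, in *Isl1CKO* E14.5 cells 73.9 and 89.9, and in control E14.5 cells 83.7 and 88.6. These 2 genes are therefore called here by their symbols and not as low genes. The summed CPM of the listed genes was 205 ± 36.2 (SD, n = 6) in *Isl1CKO* and 247 ± 40.9 (n = 5) in control cells at P9, and 244 ± 24.4 (n = 5) and 240 ± 39.0 (n = 6) at E14.5.

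**Figure D2:**
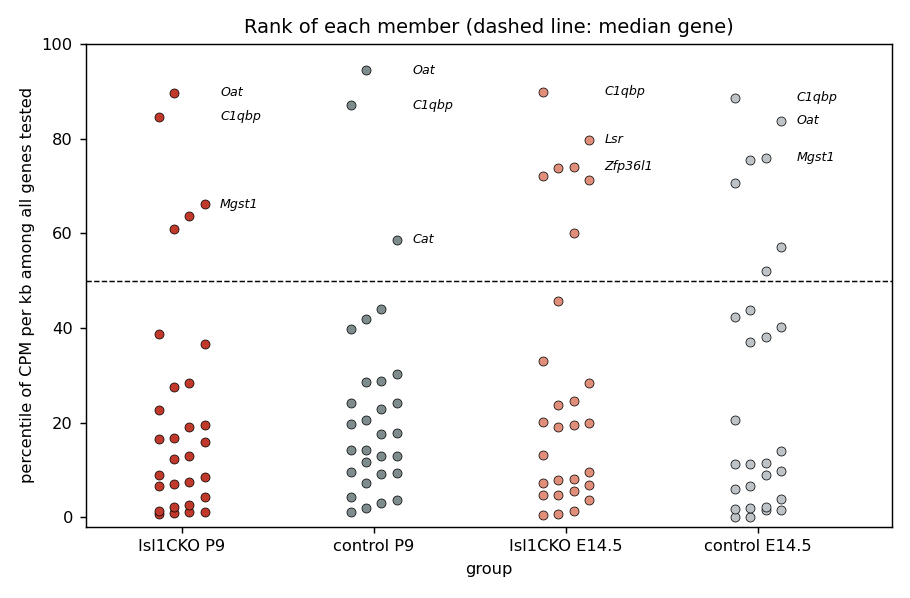
Percentile of the group mean in CPM per kb of each listed gene (point) among 17246 genes that passed the filter on low counts, with the 3 highest genes of each group named and the median gene dashed. The listed genes were not filtered. Only *C1qbp*, *Oat* and *Cat* lie above the line in control P9 cells, while 27 listed genes lie below it.

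Of the 30 genes, 17 had enough counts for the test at P9, and *Mgst1* was the 1 gene that differed between genotypes, with a higher level in the libraries labelled *Isl1CKO*. *Mgst1* had 660 counts in the *Isl1CKO* and 20 in the control libraries. It thus passed the filter on low counts mainly through the group where it was high, and its call was lost without that filter. At an adjusted p under 0.05 (edgeR's quasi-likelihood test, Benjamini-Hochberg adjustment over 13964 genes), 1 listed gene was higher, beside 2.66% of all genes tested, and 0 were lower, beside 2.14%. The count of 0 compares with 5 listed genes in either direction at an unadjusted p under 0.05, and with 0 lower by DESeq2 and limma. The share of all genes at the unadjusted threshold was not counted, so nothing is read from the 5 about the list. The median log2 fold change was -0.26 over the 17 genes and 0.02 over all genes. The spread between libraries was wide: the median standard error of the log2 fold change was 0.79 over the 17 genes and 0.43 over all genes. On simulated P9 counts with known changes the test found 12% of 2-fold rises, 62% of 4-fold rises, 10% of falls to 0.5-fold and 38% of falls to 0.25-fold. The changed genes were drawn at random from all tested, so these percentages may be too high for the listed genes. A gene that missed the threshold is therefore not shown to be alike in the genotypes.

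At E14.5, 20 of the genes were tested, and *Igfbp4* was the 1 gene that differed, again with a higher level in *Isl1CKO*. Higher calls were 1 listed gene beside 0.602% of 15960 genes tested, and lower calls were 0 beside 0.827%. At an unadjusted p under 0.05 there were 7 listed genes in either direction, and DESeq2 and limma also gave 0 lower. Here too the share of all genes at the unadjusted threshold was not counted, so nothing is read from the 7. The median log2 fold change was -0.43 over the 20 genes and -0.0045 over all genes. In simulated E14.5 counts, with changes in genes drawn at random from all tested, the test found 52% of 2-fold and 68% of 4-fold rises. It found 32% of falls to 0.5-fold and 54% of falls to 0.25-fold. The median standard error was 0.52 over the 20 genes and 0.25 over all genes, so these percentages may be too high for the listed genes.

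**Figure D3:**
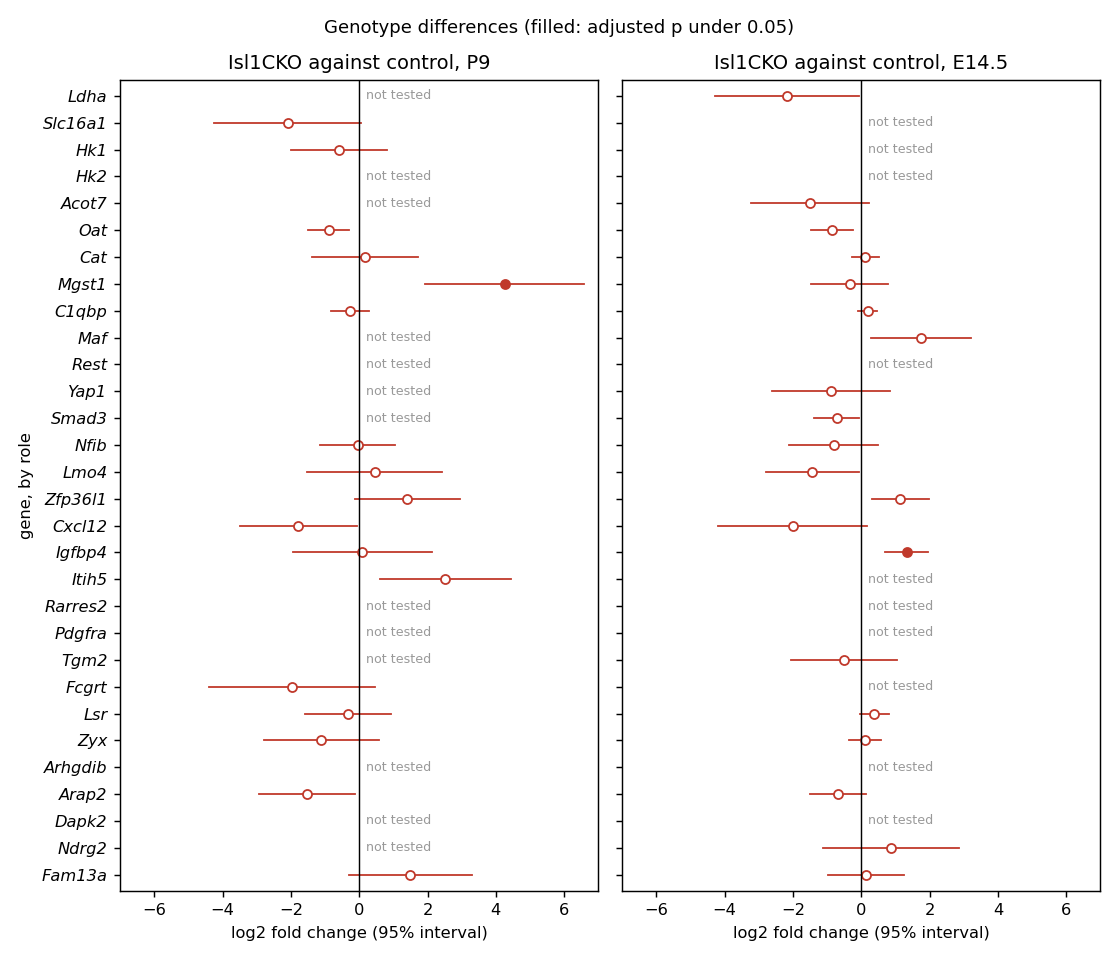
Log2 fold change of *Isl1CKO* against control with its 95% interval for each listed gene tested, at P9 (left) and E14.5 (right); filled points have an adjusted p under 0.05. *Mgst1* at P9 and *Igfbp4* at E14.5 are the filled points, and most other intervals include 0.

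Between the ages, listed genes changed in both directions in both genotypes. In controls, P9 against E14.5, 5 of 25 genes tested were higher (*Hk1*, *Oat*, *Nfib*, *Fcgrt* and *Arhgdib*), beside 15.8% of 17265 genes, and 4 were lower (*Ldha*, *Mgst1*, *Smad3* and *Lsr*), beside 15.2%. In *Isl1CKO*, 3 genes were higher (*Oat*, *Nfib* and *Itih5*), beside 16.0%, and 6 were lower (*C1qbp*, *Maf*, *Igfbp4*, *Lsr*, *Zyx* and *Arhgdib*), beside 13.7%. *Oat* and *Nfib* were thus higher and *Lsr* lower at P9 in both genotypes. The comparisons use different libraries but come from 1 model with a shared estimate of the spread, and age and dissociation go together in both. The share of all genes called in both genotypes was not counted, so nothing is read from this overlap. Without *Isl1CKO* E14.5 libraries 3, 4 and 5, which leaves 2 libraries in that group, 0 listed genes were higher and 2 lower (*Lsr* and *Zyx*) in *Isl1CKO*, beside 1001 higher and 1055 lower of 19409 genes. The median log2 change with age was -0.68 in *Isl1CKO* and -0.49 in controls, against 0.05 and -0.04 over all genes. The test of the difference between the *Isl1CKO* effects at the ages called *Mgst1* (higher at P9, beside 1.23% of genes) and *Arhgdib* (lower at P9, beside 0.851%).

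**Figure D4:**
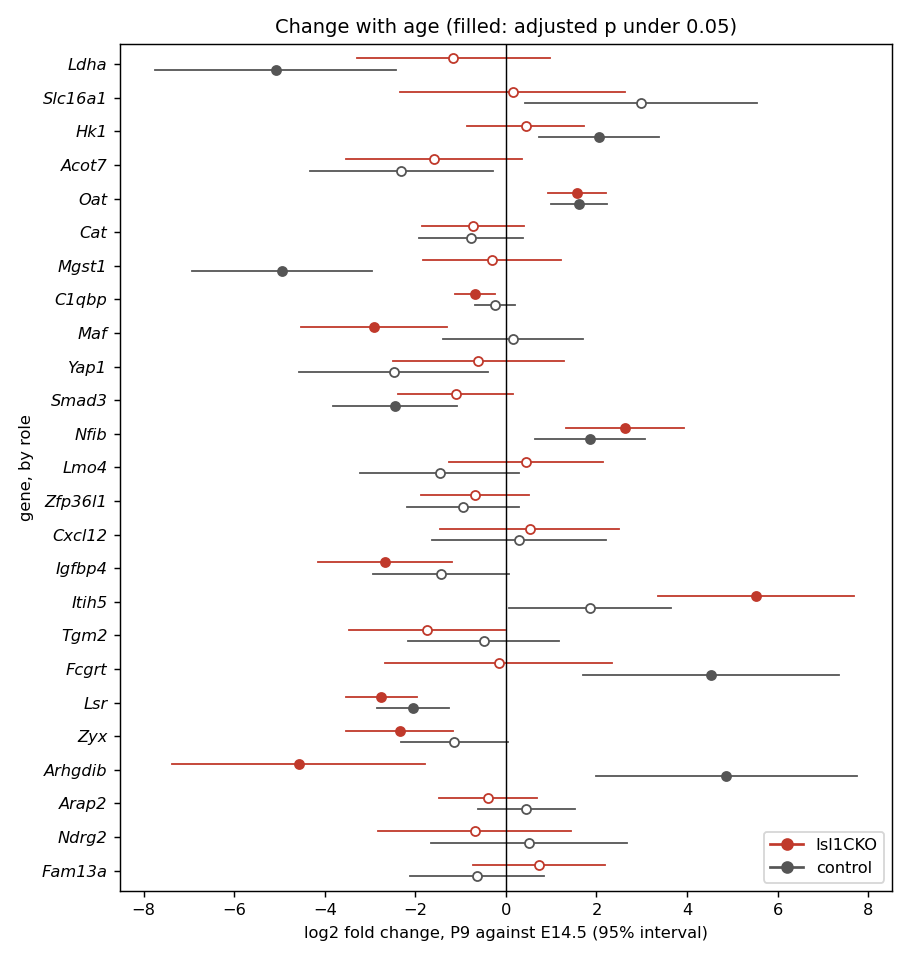
Log2 fold change between P9 and E14.5 with its 95% interval in *Isl1CKO* (red) and control cells (gray) for the 25 listed genes tested; filled points have an adjusted p under 0.05. *Oat* and *Nfib* are filled on the right in both genotypes and *Lsr* is filled on the left in both, while *Mgst1* and *Ldha* are filled on the left in controls only and *Arhgdib* is filled on opposite sides.

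Among the metabolic genes, *Mgst1* carried the largest genotype difference. It lies on chromosome 6 at 138140316 to 138156755 (GRCm38, plus strand) and encodes a membrane-bound microsomal glutathione S-transferase and peroxidase that detoxifies lipid peroxides. At P9 its level had a lowest value of 0.226, a median of 7.18 and a highest value of 26.4 CPM over 6 *Isl1CKO* libraries, against 0.14, 0.151, 0.138, 2.22 and 0.394 CPM in the control libraries. Of the *Isl1CKO* libraries, 5 were above every control library and 1 lay within the control range, so the groups overlapped. The difference was 4.26 on the log2 scale (95% interval 1.93 to 6.59, standard error 1.09, adjusted p = 0.037 from edgeR). At E14.5 *Mgst1* had 6.78, 5.90, 10.4, 9.66 and 40.5 CPM in *Isl1CKO*, against 6.16, 14.9 and 33.8 CPM as lowest, median and highest of 6 controls, and the difference did not pass the test (-0.34, standard error 0.53, adjusted p = 0.88). In controls it was lower at P9 than at E14.5 in every library (log2 fold change -4.95, standard error 0.96, adjusted p = 0.00037), whereas in *Isl1CKO* the change with age was -0.31 (standard error 0.74, adjusted p = 0.78). The *Isl1CKO* effect at P9 minus that at E14.5 was 4.64 (log2, standard error 1.19, adjusted p = 0.039). This call was lost without *Isl1CKO* E14.5 libraries 3, 4 and 5 (5.84, adjusted p = 0.14) and without control P9 libraries 1 and 3 (4.04, adjusted p = 0.12). The P9 difference lost its call when any of 7 of the 11 libraries was left out (control 1, 2, 3 or 5, or *Isl1CKO* 1, 3 or 6), with log2 fold changes of 3.84 to 5.73 and adjusted p of 0.012 to 0.090. Without control libraries 1 and 3 it was 3.66 and lost the call (adjusted p = 0.19), and limma, no filter on low counts and the replicate block lost it too. The fall in controls passed the test in each of 22 fits that left out 1 library.

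The promoter of *Mgst1* is shown because it is the gene that differed at P9, beside that of *Igfbp4*, which differed at E14.5. Both are the 250 bases before a RefSeq start site on GRCm38.p6, on the plus strand, at chr6:138140277-138140526 and chr11:99040994-99041243. Capitals mark TAAT on either strand (read as TAAT or ATTA), the core letters that homeodomain proteins such as ISL1 bind.
Mgst1: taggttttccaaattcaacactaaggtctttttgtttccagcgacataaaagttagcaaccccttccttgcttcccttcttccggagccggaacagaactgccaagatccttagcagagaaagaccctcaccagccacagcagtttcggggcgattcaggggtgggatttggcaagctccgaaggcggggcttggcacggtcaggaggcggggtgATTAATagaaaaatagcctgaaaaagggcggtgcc
Igfbp4: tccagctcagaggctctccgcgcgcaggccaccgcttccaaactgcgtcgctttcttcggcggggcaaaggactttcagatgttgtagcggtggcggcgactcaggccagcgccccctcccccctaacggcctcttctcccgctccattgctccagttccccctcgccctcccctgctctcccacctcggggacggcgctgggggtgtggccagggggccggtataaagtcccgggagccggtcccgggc
The GENCODE annotation used here starts *Mgst1* inside this window, so its letters are not all upstream of every transcript. The *Mgst1* window holds 2 overlapping matches, starting 35 and 33 bases before the start site, and the *Igfbp4* window holds 0. RefSeq gives *Mgst1* another start site, whose window at chr6:138141337-138141586 is not shown and holds 0. The letters occur in 54.9% of all 32851 such RefSeq windows, and of the 25 listed genes with a window 8 do. A match describes the letters only and is not a binding site.

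*Ldha* was low at P9 in both genotypes. Its level was 0.0863, 0.320 and 4.70 CPM (lowest, median and highest of 6) in *Isl1CKO*, against 0.560, 0.151, 0.276, 0.158 and 0.263 CPM in controls, and it was below the minimum count of the test. At E14.5 it had 1.51, 0.314, 3.23, 2.92 and 3.10 CPM in *Isl1CKO*, against 0, 4.92 and 41.3 CPM as lowest, median and highest of the controls. Control library 2 at 41.3 CPM thus set most of the E14.5 control mean, and the genotype difference did not pass the test (-2.17, standard error 0.98, adjusted p = 0.42). In controls *Ldha* was lower at P9 than at E14.5 (log2 fold change -5.09, standard error 1.29, adjusted p = 0.0041), although 1 E14.5 library was at 0 and the groups overlapped. Without control E14.5 library 2, or any other library, the fall stayed past the threshold, at -5.48 to -3.66, and with limma it did not (adjusted p = 0.13). In *Isl1CKO* the change with age was -1.16 (standard error 1.03, adjusted p = 0.43). The difference between the ages' *Isl1CKO* effects was 3.93 (standard error 1.59, adjusted p = 0.225) and did not pass. Of the 36-base windows of *Ldha* transcripts 16.5% also occur in another gene, most of them in 44 annotated pseudogenes, and reads that map to several places were not counted. The 18 of these pseudogenes in the tables together had 6.92 ± 3.96 CPM in *Isl1CKO* and 4.99 ± 2.75 CPM in controls at P9, and 4.47 ± 0.471 and 5.67 ± 2.68 CPM at E14.5. The 44 share from 1 (*Gm5964*) to 214 (*Gm5452*) of the 3491 windows, so these counts can also come from sequence unlike *Ldha*. How many *Ldha* reads were left out or assigned to them was not tested.

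The share of *Ldha* in the counts of the A and B subunits of lactate dehydrogenase varied between libraries. It was 7.89% ± 14.55 in *Isl1CKO* and 1.71% ± 1.03 in controls at P9, and 24.6% ± 15.2 and 32.5% ± 25.2 at E14.5. Neither difference passed an exact two-sided permutation test (p = 0.59 at each age, adjusted over the 4 shares tested 0.59), where the smallest p possible was 0.0022. *Ldhb* itself had 19.2 ± 17.3 CPM in *Isl1CKO* and 17.9 ± 6.56 CPM in controls at P9.

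*Slc16a1* was detected in all control libraries at P9. Its level was 0.0863, 0.171 and 4.73 CPM (lowest, median and highest) in *Isl1CKO* P9 libraries, against 3.50, 1.06, 3.18, 6.82 and 5.65 CPM in control P9 libraries. 5 of 6 *Isl1CKO* libraries were below every control library and 1 was within the control range (log2 fold change -2.09, standard error 1.01, adjusted p = 0.30). At E14.5 it had 1.05, 0.439, 0, 1.65 and 1.09 CPM in *Isl1CKO*, and 0 to 2.68 CPM with a median of 0.0617 CPM in controls. Between the ages controls differed by 2.98 in log2 units (standard error 1.24, adjusted p = 0.072). It missed the threshold here and passed it with DESeq2 (adjusted p = 0.049), limma (0.0019) and the replicate block (0.045).

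The hexokinases were low in every group. *Hk1* had 0.863, 1.15 and 2.75 CPM (lowest, median and highest) in *Isl1CKO* and 5.32, 0.907, 0.828, 2.38 and 0.789 CPM in controls at P9. It had 0.187 to 0.748 CPM in controls at E14.5, so the control ages did not overlap and the gene was higher at P9 (log2 fold change 2.06, standard error 0.64, adjusted p = 0.017). Without control P9 library 1 the change was 1.31 and lost its call (adjusted p = 0.12), without libraries 1 and 3 it was 1.45 (adjusted p = 0.13), and scaled by total counts or with the replicate block it was lost too. *Hk2* reached at most 0.805 CPM in *Isl1CKO* and 1.27 CPM in control P9 libraries, and 2.57 and 0.686 CPM at E14.5, and was below the minimum of the test.

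*Oat*, which links ornithine to glutamate and proline, was higher at P9 than at E14.5. At P9 it had 22.6, 56.4 and 99.7 CPM (lowest, median and highest) in *Isl1CKO*, against 126, 119, 81.6, 118 and 96.3 CPM in controls. At E14.5 it had 31.0, 13.1, 22.6, 14.8 and 16.6 CPM in *Isl1CKO*, against 14.2, 36.3 and 47.2 CPM in controls. *Isl1CKO* values were thus mostly below controls at both ages, with overlap. Neither difference passed the test (P9: -0.89, standard error 0.28, adjusted p = 0.087; E14.5: -0.86, standard error 0.29, adjusted p = 0.22). Scaled by library totals computed without hormone genes, the P9 difference passed (-1.02, adjusted p = 0.041). The rise with age was 1.58 (standard error 0.31, adjusted p = 0.00045) in *Isl1CKO* and 1.61 (standard error 0.30, adjusted p = 0.00025) in controls. Without *Isl1CKO* E14.5 libraries 3, 4 and 5 the *Isl1CKO* rise was 1.37 and lost its call (adjusted p = 0.061). Scaled by total counts alone, which put the median log2 change of all genes in controls at -1.21, the control rise was 0.43 and lost its call (adjusted p = 0.20).

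*Cat*, the peroxide-degrading catalase of peroxisomes, varied between P9 libraries. It had 2.14 to 23.5 CPM in *Isl1CKO* and 9.80, 1.36, 34.2, 3.49 and 4.73 CPM in controls, with the highest control value in library 3, which also had the highest acinar markers. At E14.5 it kept to 13.7 to 24.6 CPM in *Isl1CKO* and 14.02 to 23.6 CPM in controls. The control change with age was -0.77 (standard error 0.56, adjusted p = 0.31), and without control P9 libraries 1 and 3 it was -2.53 and passed the test (adjusted p = 0.0014). *C1qbp* was lower at P9 than at E14.5 in *Isl1CKO*, at 45.4 ± 12.9 CPM (n = 6) against 72.9 ± 9.09 CPM (n = 5), a log2 change of -0.68 (standard error 0.21, adjusted p = 0.017). Without *Isl1CKO* E14.5 libraries 3, 4 and 5 it was -0.70 and lost its call (adjusted p = 0.15). In controls it had 54.3 ± 19.2 CPM at P9 and 64.3 ± 12.9 CPM at E14.5 (-0.24, standard error 0.21, adjusted p = 0.41). *Acot7*, a cytosolic acyl-CoA thioesterase, averaged 0.376 CPM in *Isl1CKO* and 0.644 CPM in controls at P9, and 1.15 and 3.27 CPM at E14.5. Its control change with age (-2.31, standard error 0.98, adjusted p = 0.075) missed the threshold.

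**Figure D5:**
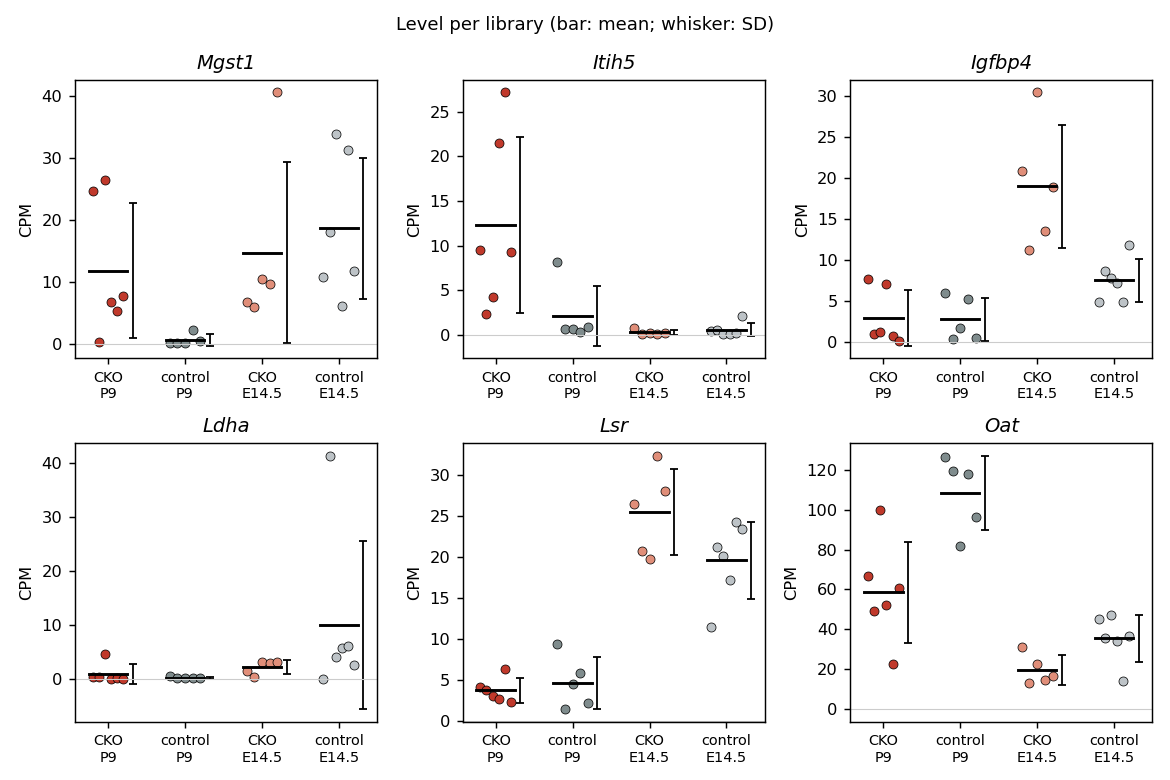
CPM of *Mgst1*, *Itih5*, *Igfbp4*, *Ldha*, *Lsr* and *Oat* in each library (points), with the group mean (bar) and SD (whisker), in *Isl1CKO* P9, control P9, *Isl1CKO* E14.5 and control E14.5. Control P9 values of *Mgst1* lie near 0 and below 5 of 6 *Isl1CKO* values, and both P9 groups of *Lsr* lie below both E14.5 groups.

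Among the transcription and RNA-binding regulators no gene differed between genotypes at an adjusted p under 0.05. *Zfp36l1*, which binds AU-rich messages and promotes their decay, had 31.7, 14.9, 18.1, 37.1 and 23.3 CPM in *Isl1CKO* at E14.5, against 3.92, 11.5 and 20.9 CPM (lowest, median and highest) in controls. 3 of the 5 *Isl1CKO* values were above all control values, and the log2 fold change of 1.15 (standard error 0.39) had an adjusted p of 0.22. At P9 it ranged over 0.902 to 42.4 CPM in *Isl1CKO* and 2.76 to 8.88 CPM in controls (1.41, standard error 0.72, adjusted p = 0.34). Of its exon bases 55.9% are overlapped by *Gm26669* on the other strand, and the library kit does not mark strand, so reads of the 2 cannot be told apart. *Maf*, a large MAF factor, had 0.724, 2.32, 6.92, 8.46 and 3.75 CPM in *Isl1CKO* and 0.233 to 3.81 CPM in controls at E14.5 (1.75, standard error 0.69, adjusted p = 0.32). Its highest values were in libraries 3, 4 and 5, those with the highest macrophage markers, whose part in the result was not tested. It was lower at P9 than at E14.5 in *Isl1CKO* (-2.91, standard error 0.78, adjusted p = 0.0062), and without these 3 libraries the change was -1.41 (adjusted p = 0.39). *Lmo4*, a LIM-only protein that binds the same cofactor LDB1 as ISL1, had 0.329 to 4.58 CPM in *Isl1CKO* and 1.184 to 11.9 CPM in controls at E14.5 (-1.44, standard error 0.63, adjusted p = 0.40).

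*Smad3*, the intracellular effector of TGF-beta and activin signals, was lower at P9 than at E14.5 in controls. It had 1.40, 1.36, 0.828, 3.01 and 0.789 CPM in control P9 libraries, against 4.72, 7.72 and 12.4 CPM (lowest, median and highest) in control E14.5 libraries, with no overlap (-2.45, standard error 0.66, adjusted p = 0.0067). In *Isl1CKO* it had 0.21, 1.31 and 6.30 CPM at P9, against 3.82, 4.58, 7.39, 3.43 and 5.22 CPM at E14.5, with overlap (-1.11, standard error 0.61, adjusted p = 0.18). The difference of these changes was 1.34 (standard error 0.88, adjusted p = 0.52). *Nfib*, a nuclear factor I protein, was higher at P9 in both genotypes, at 14.9 ± 10.6 CPM in *Isl1CKO* and 15.4 ± 4.64 CPM in controls, against 2.41 ± 1.66 and 4.24 ± 3.88 CPM at E14.5. The log2 change with age was 2.62 (standard error 0.63, adjusted p = 0.0028) in *Isl1CKO* and 1.85 (standard error 0.59, adjusted p = 0.019) in controls. The control call was lost without control P9 libraries 1 and 3 (1.65, adjusted p = 0.083) and with total counts, and that of *Isl1CKO* without *Isl1CKO* E14.5 libraries 3, 4 and 5 (2.60, adjusted p = 0.077). *Yap1*, the coactivator at the end of the Hippo pathway, averaged 0.728 CPM in *Isl1CKO* and 0.359 CPM in controls at P9, and 1.11 and 2.07 CPM at E14.5 (control change -2.48, standard error 1.01, adjusted p = 0.065). *Rest*, the repressor of neuronal genes outside neurons and endocrine cells, averaged 0.405 CPM in *Isl1CKO* and 0.494 CPM in controls at P9, and 0.680 and 1.24 CPM at E14.5, and was below the test's minimum.

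Among secreted, surface and matrix genes, *Igfbp4* was higher in *Isl1CKO* cells at E14.5. It encodes a secreted protein that binds insulin-like growth factors. It had 20.9, 11.2, 30.4, 13.5 and 18.9 CPM in *Isl1CKO*, against 4.86, 7.50 and 11.9 CPM (lowest, median and highest) in controls. 4 of the 5 *Isl1CKO* values were above all controls and 1 was not, and the difference was 1.33 on the log2 scale (95% interval 0.70 to 1.96, standard error 0.29, adjusted p = 0.039). *Igfbp4* lies on chromosome 11 at 99041244 to 99054392 (GRCm38, plus strand). The call was lost when any of 8 of 11 libraries was left out (control 1, 2, 3, 4 or 5, or *Isl1CKO* 1, 3 or 5), with log2 fold changes of 1.09 to 1.503 and adjusted p up to 0.11. Without *Isl1CKO* libraries 3, 4 and 5 together it was 1.10 and lost as well (adjusted p = 0.49), and the 2 libraries left had 20.9 and 11.2 CPM. That run called only 19 genes higher and 23 lower of 18031. No filter on low counts, the replicate block and all 22 libraries in 1 model lost it too. At P9 *Igfbp4* had 0.173, 1.14 and 7.67 CPM in *Isl1CKO*, against 6.02, 0.454, 1.79, 5.23 and 0.526 CPM in controls (0.09, standard error 0.95, adjusted p = 0.98). The change with age was -2.67 (standard error 0.72, adjusted p = 0.0067) in *Isl1CKO*, with no overlap between the ages, and -1.43 (standard error 0.73, adjusted p = 0.14) in controls. Without *Isl1CKO* E14.5 libraries 3, 4 and 5 the *Isl1CKO* change was -2.46 and lost its call (adjusted p = 0.099).

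*Itih5*, whose product binds hyaluronan in the extracellular matrix, was higher at P9 than at E14.5 in *Isl1CKO*, with no overlap. At P9 it had 2.37, 9.38 and 27.2 CPM (lowest, median and highest) in *Isl1CKO*, against 8.12, 0.605, 0.690, 0.317 and 0.920 CPM in controls. Every *Isl1CKO* library was above 4 of the 5 control libraries, and control library 1 lay within the *Isl1CKO* range. The difference (2.52, standard error 0.90, 95% interval 0.60 to 4.43, unadjusted p = 0.013) had an adjusted p of 0.14, and it passed with DESeq2 (2.53, adjusted p = 0.033). Without control P9 libraries 1 and 3 it was 4.27 and passed (adjusted p = 0.036). At E14.5 the gene had 0.0636 to 0.724 CPM in *Isl1CKO* and 0.124 to 2.08 CPM in controls. The rise with age was 5.52 (standard error 1.05, adjusted p = 0.00031) in *Isl1CKO* and 1.86 (standard error 0.87, adjusted p = 0.11) in controls, and the difference between these was 3.66 (standard error 1.28, adjusted p = 0.14). Without *Isl1CKO* E14.5 libraries 3, 4 and 5 the *Isl1CKO* rise was 4.79 and lost its call (adjusted p = 0.056). The difference passed without control P9 libraries 1 and 3 (5.43, adjusted p = 0.034).

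*Lsr*, the lipolysis-stimulated lipoprotein receptor of tricellular junctions, was lower at P9 in both genotypes. It had 2.33, 3.46 and 6.44 CPM in *Isl1CKO* at P9, against 26.5, 20.8, 19.8, 32.4 and 28.1 CPM in *Isl1CKO* at E14.5, with a log2 change of -2.75 (standard error 0.38, adjusted p = 6.4e-06). In controls it had 9.38, 1.51, 4.56, 5.86 and 2.24 CPM at P9, against 11.5, 20.7 and 24.3 CPM at E14.5, with a log2 change of -2.06 (standard error 0.39, adjusted p = 0.00026). The ages did not overlap in either genotype, and the change passed every alternative run. Reads from 44.7% of its exon bases cannot be told from those of overlapping genes, mainly *Gm4673* on the other strand. *Fcgrt*, the neonatal Fc receptor, was higher at P9 in controls, with 4.34, 10.9, 2.49, 0.158 and 0.394 CPM against 0 to 0.698 CPM at E14.5 (4.52, standard error 1.37, adjusted p = 0.014), and lost its call without control P9 library 2 (adjusted p = 0.056). In *Isl1CKO* it had 0 to 3.72 CPM at P9 and 0, 0.126, 1.23, 2.48 and 1.36 CPM at E14.5, the 3 highest again in libraries 3, 4 and 5.

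*Cxcl12*, the chemokine ligand of CXCR4, had 0.431, 1.39 and 3.90 CPM in *Isl1CKO* and 5.32, 0.907, 4.56, 16.5 and 1.05 CPM in controls at P9 (-1.79, standard error 0.81, adjusted p = 0.26). At E14.5 it had 0.132 to 2.93 CPM in *Isl1CKO* and 0.187 to 14.9 CPM in controls (-2.01, standard error 1.02, adjusted p = 0.48). *Pdgfra*, a receptor of platelet-derived growth factors and a marker of mesenchyme, reached at most 0.805 CPM in *Isl1CKO* and 1.27 CPM in control P9 libraries, and 0.439 and 0.350 CPM at E14.5. *Tgm2*, a protein-crosslinking transglutaminase, averaged 0.230 CPM in *Isl1CKO* and 0.812 CPM in controls at P9, and 0.794 and 1.14 CPM at E14.5. *Rarres2*, which encodes the adipokine chemerin, had 0, 1.07 and 4.29 CPM (lowest, median and highest) in *Isl1CKO* and 0.28, 0, 0.276, 0 and 0.131 CPM in controls at P9, below the test's minimum, and *Lrrc61* on the other strand overlaps 33.6% of its exon bases.

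Among cytoskeletal and signalling genes *Zyx*, a focal adhesion protein, was lower at P9 than at E14.5 in *Isl1CKO*. It had 0.504, 1.09 and 6.74 CPM at P9, against 12.9, 10.2, 12.7, 10.7 and 12.6 CPM at E14.5, with no overlap (-2.34, standard error 0.57, adjusted p = 0.0032). In controls it had 2.52, 8.16, 1.24, 5.71 and 7.36 CPM at P9, against 6.72 to 15.4 CPM at E14.5 (-1.14, standard error 0.57, adjusted p = 0.13). The genotypes differed at P9 by -1.11 in log2 units (standard error 0.79, adjusted p = 0.54). *Arap2*, a GTPase-activating protein for ARF6, had 1.16 to 5.30 CPM in *Isl1CKO* and 1.24 to 10.5 CPM in controls at P9 (-1.53, standard error 0.66, adjusted p = 0.24). *Fam13a*, a protein with a GTPase-activating domain, had 0.63 to 12.0 CPM in *Isl1CKO* and 0.394 to 6.02 CPM in controls at P9 (1.495, standard error 0.85, adjusted p = 0.41). *Dapk2*, a death-associated protein kinase, and *Ndrg2* averaged under 2 CPM in each of the 4 groups.

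*Arhgdib*, an inhibitor of small GTPases best known from white blood cells, had few counts, and its change with age in controls rested on 1 library. In *Isl1CKO* E14.5 libraries it had 0.0658, 1.32, 4.69, 2.29 and 1.36 CPM, against 2 counts in all 6 control libraries, and at P9 it had 4 counts in 6 *Isl1CKO* libraries, against 32 counts in 5 control libraries, 31 of them in library 1. The ratio of depth-scaled counts, *Isl1CKO* to control, at E14.5 was 94.7 (95% counting interval 25.8 to 788). That of control P9 to control E14.5 was 43.8 (11.2 to 377). In the fit the gene was lower at P9 than at E14.5 in *Isl1CKO* (-4.57, standard error 1.35, adjusted p = 0.013) and higher in controls (4.87, standard error 1.40, adjusted p = 0.010). The difference of the effects was -9.44 (standard error 1.95, adjusted p = 0.010). Without control P9 library 1 the control change was 0.55 (adjusted p = 0.81) and the difference -5.13 (adjusted p = 0.31). The *Isl1CKO* change passed in each of 22 fits without 1 library, but not without *Isl1CKO* E14.5 libraries 3, 4 and 5 together (-3.11, adjusted p = 0.25), where the difference was -7.92 (adjusted p = 0.15). With so few counts on 1 side, the size of these fitted changes depends on the model and is no bound. In *Isl1CKO* E14.5 libraries 3, 4 and 5 the macrophage markers *Csf1r* (3.29, 7.69 and 6.03 CPM) and *Tyrobp* (7.04, 6.87 and 1.30 CPM) were present, while *Tyrobp* was at 0 in libraries 1 and 2 and in all E14.5 controls. In control P9 library 1 the macrophage sum was 88.1 CPM, of which *C1qa* made 66.8 CPM, with *Tyrobp* at 0. The part of such cells in these values was not tested.

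Genes related to the listed ones by function were counted in the same way, beside 2.66% higher and 2.14% lower of all genes at P9. The lists are short, and nothing is read from their shares. Of 13 tested genes of lactate and pyruvate handling at P9, 1 was higher in *Isl1CKO* and 2 were lower, with a median log2 fold change of 0.09. *Bsg*, the chaperone of MCT1, was higher (0.61, standard error 0.16, adjusted p = 0.040), and *Pcx*, pyruvate carboxylase, was lower (-1.92, standard error 0.44, adjusted p = 0.018). Of 8 genes of glucose phosphorylation and sensing, 0 were higher and 2 lower, with a median of -0.46. These were *G6pc2*, the islet glucose-6-phosphatase (241 ± 94.6 CPM in *Isl1CKO* and 1339 ± 225 CPM in controls, adjusted p = 4.4e-05), and *Slc2a2*, the glucose transporter GLUT2 (-1.73, standard error 0.25, adjusted p = 0.0007). Of 5 relatives of *Maf* and *Nfib*, 3 were lower, and *Mafa*, an activator of insulin transcription, had 6.07 ± 5.85 CPM in *Isl1CKO* and 292 ± 93.0 CPM in controls (-5.60, standard error 0.68, adjusted p = 0.0002). Of 12 peroxide and glutathione enzymes, *Sod1* was higher (0.57, standard error 0.14, adjusted p = 0.033) and 0 were lower, with a median of 0.09, and *Mgst3*, a relative of *Mgst1*, was at 0.86 (standard error 0.26, adjusted p = 0.073). Of the Hippo pathway and REST partner lists 0 genes differed at P9, among 11 and 8 tested. At E14.5, 1 of 15 tested genes of lactate and pyruvate handling was lower in *Isl1CKO*, beside 0.827% of all genes, the amino acid transporter gene *Slc16a10* (-0.57, standard error 0.11, adjusted p = 0.016). In controls, P9 against E14.5, 5 of 8 glucose genes were higher, beside 15.8% of all genes, and 3 lower, beside 15.2%, with a median of 0.90.

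Markers of other cell types were present, and the summed duct markers were above the sum of the listed genes in every library. At P9 the duct sum was 671 to 1200 CPM in *Isl1CKO* and 466 to 615 CPM in controls, with no overlap. Most of it came from *Epcam*, an adhesion protein of many epithelia (309 to 474 CPM and 199 to 325 CPM), and the keratin gene *Krt7* (169 to 441 CPM and 177 to 216 CPM), while *Cftr*, the chloride channel of duct cells, reached at most 3.36 and 0.792 CPM. The acinar sum was 32.8 to 291 CPM in *Isl1CKO* and 53.8 to 1452 CPM in controls. The summed mesenchyme markers were 8.97 to 56.6 CPM in *Isl1CKO* and 12.3 to 92.1 CPM in controls, and those of endothelial cells 13.4 to 33.3 CPM and 3.29 to 12.4 CPM, with no overlap between the genotypes. By group mean the largest part of the endothelial sum was *Esam* (5.17 to 24.4 CPM and 0.475 to 5.74 CPM, with overlap). It was the 1 endothelial marker with enough counts for edgeR's test at P9 and did not pass (2.15, standard error 0.66, adjusted p = 0.081). The other endothelial markers went in both directions. The lymphocyte sum was 14.3 to 134 CPM in *Isl1CKO* and 25.5 to 50.3 CPM in controls, nearly all from *Cd79a*, a B cell receptor subunit (12.94 to 133 CPM and 24.9 to 48.3 CPM), which was under 1 CPM in every E14.5 library. *Epcam*, *Krt7*, *Cftr* and *Cd79a* were named after their values were seen. The part of such cells in the listed genes was not tested.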

How the data were processed

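Raw read counts per gene were deposited by the authors, 1 table for P9 and 1 for E14.5, and no gene in either has a row sum under 10. Per the study's methods, reads were trimmed (cutadapt 1.18, Trimmomatic), cleared of rRNA (Bowtie 1.2.2 with SortMeRNA), aligned with STAR 2.7.0c to GRCm38 and counted by gene with Rsubread, leaving out reads that map to several places. The submitters' processing notes name the build GRCm38.p6. The kit does not mark strand. The 30 genes, the related lists and the tests were chosen with earlier results of these data known. The text names all 30 genes, *Isl1*, *Ldhb* and at most 4 genes of each related or marker list by smallest p, *Epcam*, *Krt7*, *Cftr* and *Cd79a* were added, and some planned items are not reported here.

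Counts were analysed with edgeR 4.0.16 (R 4.3.3): TMM scaling, removal of low genes with filterByExpr, and quasi-likelihood tests with Benjamini-Hochberg adjustment over all genes tested, at 0.05. Each age was fitted on its own, and the age comparisons and the difference of the genotype effects came from 1 model of all 22 libraries over genes in both tables. CPM are counts per 1000000 of the TMM-scaled library size, and levels per kb use exon lengths of a later GENCODE release on GRCm38 than the one used for counting. On simulated data with known changes the median log2 fold changes came out near the true ones. Only part of the known changes was found, from 4% to 68% by comparison and size. Alternatives were DESeq2 1.42.0, limma 3.58.1, other scalings, filters and thresholds, the replicate number as a block, leaving out each library, and leaving out *Isl1CKO* E14.5 libraries 3, 4 and 5. Leaving out control P9 libraries 1 and 3 was added after seeing the data. The study calls the libraries biological replicates, and the labels name no animals, so p-values measure the spread between these libraries. Count intervals cover counting error only.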

Additional observations from a re-analysis of the deposited data

Results flagged for a closer look

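In 6 of 81 groups of a listed gene with a mean of at least 1 CPM, 1 library stood apart from the others of its group by Dixon's criterion at the 95% level, which chance alone meets in about 1 of 20 groups. *Oat* was at 14.2 CPM in control E14.5 library 5, against 34.1 to 47.2 CPM in the other libraries. *Mgst1* was at 40.5 CPM in *Isl1CKO* E14.5 library 5, against 5.90 to 10.4 CPM in the others. *Itih5* was at 8.12 CPM in control P9 library 1, against 0.317 to 0.920 CPM. *Dapk2* was at 5.80 CPM in control P9 library 3, against 0.263 to 0.560 CPM. *Hk1* was at 2.75 CPM in *Isl1CKO* P9 library 3, against 0.863 to 1.26 CPM. *Arap2* was at 5.30 CPM in *Isl1CKO* P9 library 2, against 1.16 to 2.06 CPM.

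The *Isl1CKO* effect differed between P9 and E14.5 for *Mgst1*, by 4.64 on the log2 scale (edgeR adjusted p = 0.039), and this lost its call in 13 of 22 fits without 1 library (adjusted p of 0.011 to 0.080). It differed for *Arhgdib* by -9.44 (edgeR adjusted p = 0.010), which rested on control P9 library 1.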

How the results depend on the processing

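Counts of listed genes called are given as higher or lower, and the cause of each change was not tested. In *Isl1CKO* against control at P9 (1 higher, 0 lower), 3 of 17 were higher with total counts only, beside 3811 of 13964 genes. With DESeq2 2 of 27 were higher, beside 911 of 26725 genes. The higher calls were 0 with limma (beside 300 genes), no filter (281), the replicate block (179) or an adjusted p under 0.01 (159). With totals without the 8 hormone genes 1 was lower, beside 460 of 13964 genes. At E14.5 (1 higher, 0 lower), 2 were higher with DESeq2 (*Arhgdib* and *Igfbp4*), beside 294 of 26814 genes. With no filter 1 was higher (*Arhgdib* and not *Igfbp4*), beside 76 of 27124. The higher calls were 0 with the replicate block (beside 57 genes), an adjusted p under 0.01 (32) and all 22 libraries in 1 model (23). They were also 0 without *Isl1CKO* E14.5 libraries 3, 4 and 5 (19). In controls between the ages (5 higher, 4 lower), 2 were higher with total counts, beside 605 of 17265 genes. With the study's fold and level thresholds 2 were higher too (beside 1977 genes), and also without control P9 libraries 1 and 3 (beside 2278 of 18527). With an adjusted p under 0.01 1 was higher, beside 1811. Lower were 13 of 25 with total counts, beside 10031 of 17265 genes, and 7 with limma, beside 3013. In *Isl1CKO* between the ages (3 higher, 6 lower), 3 were lower with the study's thresholds, beside 1158 of 17265 genes. Without *Isl1CKO* E14.5 libraries 3, 4 and 5 there were 0 higher and 2 lower (*Lsr* and *Zyx*), beside 1001 and 1055 of 19409 genes. For the difference of the genotype effects (1 higher, 1 lower), 2 of 25 were higher with total counts, beside 3090 of 17265 genes. The higher calls were 0 with limma (beside 208 genes), the replicate block (105) and an adjusted p under 0.01 (72). They were also 0 without *Isl1CKO* E14.5 libraries 3, 4 and 5 (27). The lower calls were 0 with limma (beside 187 genes) and the study's thresholds (87). They were also 0 without those libraries (30) and without control P9 libraries 1 and 3 (147). Leaving out 1 library gave 0 to 1 higher and 0 to 1 lower at P9, at E14.5 and for the difference of effects, 3 to 6 higher and 4 to 5 lower in controls, and 3 higher and 6 to 8 lower in *Isl1CKO*. The *Ldha* share difference ranged over -14.4 to 0.842 percentage points at E14.5, where it reversed to 0.842 without control library 2, and over 0.313 to 7.65 at P9. For Ldha, Isl1CKO P9 against Isl1CKO E14.5, log2 fold change reversed to 0.0726 without *Isl1CKO* E14.5 libraries 3, 4 and 5. Of the other results for single genes that were tested in the main fit and called in at least 1 run of a comparison, 1127 kept their direction and side of the threshold. 45 passed it and 82 lost it. Genes called in no run are left out of these numbers, and their reversals were not counted. At P9 the median log2 fold change of the 17 genes tested went from -0.26 to 0.40 with total counts only.

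Over all genes the share of calls that were higher was 55.4% at P9, 96.2% with total counts and 38.8% with totals without hormone genes. It was 50.9%, 5.69% and 42.8% in controls between the ages, 53.8%, 18.1% and 37.5% in *Isl1CKO*, and 59.1%, 97.2% and 40.8% for the difference of effects. The median log2 change of all genes with total counts was 0.68 at P9, -1.21 in controls, -0.50 in *Isl1CKO* and 0.68 for the difference. Calls over all genes at P9 were 372 higher and 299 lower, against 911 and 766 with DESeq2 and 179 and 154 with the replicate block. At E14.5 they were 96 and 132, against 294 and 359 with DESeq2 and 57 and 77 with the block. Deviations of libraries with the same number were weakly correlated at most (r of -0.07 to 0.10 at E14.5 and -0.01 to 0.04 at P9). Of 5 *Isl1CKO* libraries with a control of the same number, 3 at E14.5 and 2 at P9 correlated best with that control. Whether the numbers pair libraries is therefore not settled, and the replicate block is given as an alternative. Most listed genes have few counts, and differences within the counting error of genes under 1 CPM were not detectable at this depth.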
